A study of Caenorhabditis elegans with 4 samples.

Results

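Broad autosomal HTZ-1 domains were taken as the peaks of the larger deposited peak list that lay on chromosomes I to V and spanned more than 5000 bp. They numbered 689, of 4457 autosomal peaks and 4940 peaks in all, and were set against the 3768 autosomal peaks up to 5 kb. The domains were chosen by their width in the larger list, so their widths, and the scores given by the same list, are descriptions and were not tested. The peaks came from chromatin immunoprecipitation and sequencing (ChIP-seq) of wild-type N2 worms, the standard laboratory strain of Caenorhabditis elegans, at the L3 larval stage. The population was mixed male and hermaphrodite and was grown at 20 °C. The series held 2 libraries of chromatin pulled down with a rabbit polyclonal antibody raised against HTZ-1 and 2 input libraries. The authors deposited 2 peak lists on the WormBase WS220 build, and neither named the libraries behind it. The list that holds the domains is called the larger list here, and the other, with 4282 nuclear peaks, the smaller list. Both are calls on the same experiment, and no source used here says whether they rest on the same libraries, so they were not treated as replicates.

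HTZ-1 is the worm form of the histone variant H2A.Z, which replaces H2A in a subset of nucleosomes. H2A.Z is known in many organisms for marking nucleosomes at promoters and enhancers, and in worms HTZ-1 is needed for normal development. C. elegans autosomes have gene-rich centres in which recombination is rare, flanked by arms that are richer in repeats, and many worm genes lie close together, some in operons. Whole worms hold many tissues. A wide region marked in every cell and adjacent narrow sites marked in different cells cannot be told apart in such material.

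Read depth is unknown here, and no value is given per library. Intervals below are 95% intervals that cover the counting of peaks only. They treat peaks as independent, although peaks cluster, and no p-value is given because peaks are not replicates.

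The domains held a large share of the autosomal HTZ-1 territory in few peaks. They made up 15.5% of autosomal peaks and 37.7% of the bases in them, 5.36 of 14.2 Mb, and covered 6.50% of the 82.4 Mb spanned by the autosomes. Their median width was 6760 bp, with quartiles of 5705 and 8641 bp, against 2111 bp for the peaks up to 5 kb. Of the 689, 579 were up to 10 kb wide, 110 were wider than 10 kb, 27 were wider than 15 kb and 5 were wider than 20 kb. The width limit cut through a continuous range. The domains just above it were V 9689770 to 9694791 (5022 bp, score 1851.7) and I 2093211 to 2098233 (5023 bp, score 2466.8). Just below it lay II 11491730 to 11496718 and I 213135 to 218123, both 4989 bp wide, with scores of 2414.02 and 3100. Scores, whose scale is not stated, stood at exactly 3100 in 365 domains (53.0%) and in 194 of the peaks up to 5 kb (5.15%). High width did not always go with a high score, since 40 domains scored under 500. Across the 689 domains, which share 1 list, Spearman's rho of width and score was 0.07, a description limited by the many ties. Across the peaks up to 5 kb it was 0.71.

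Domains lay in chromosome centres more often than narrower peaks. With the centre defined as the middle 33.3% of each autosome, 356 of the 689 domains had their midpoint there (51.7%, Wilson interval 47.9 to 55.4%), against 1491 of the 3768 peaks up to 5 kb (39.6%, 38.0 to 41.1%). Over all autosomal peaks the share was 41.4%. The difference was 12.1 percentage points (Newcombe interval 8.05 to 16.1). It had the same direction on each of the 5 autosomes, from 16.6 points on I (8.42 to 24.6) to 8.43 points on V, where the interval, -2.04 to 18.8, included 0. Per length, domains stood at 12.96 per Mb in centres (exact Poisson interval 11.6 to 14.4) and at 6.06 per Mb on arms (5.43 to 6.75). Peaks up to 5 kb stood at 54.3 per Mb in centres and 41.4 per Mb on arms. Of the 153 domains over 9 kb, 97 lay in centres (63.4%, 55.5 to 70.6%), and of the 381 domains of 5 to 7 kb, 187 did (49.1%, 44.1 to 54.1%). Among domains the share did not climb steadily with width, since it was 41.2% of the 68 domains of 8 to 9 kb and 51.9% of the 27 over 15 kb. Among peaks up to 5 kb it rose with width, from 30.7% of the 837 up to 1500 bp wide to 50.4% of the 353 over 4000 bp. Domains of 5 to 6, 6 to 7 and 7 to 8 kb stood at 48.1%, 50.7% and 50.6%, close to the widest of the narrower peaks. A place in the centre was thus not particular to domains.

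Arms were not alike. Left arms, the ends with the low coordinates, carried 139 domains (5.06 per Mb, 4.25 to 5.97), and right arms carried 194 (7.06 per Mb, 6.10 to 8.13). The imbalance lay on chromosomes II and III. There left arms held 19 and 24 domains and right arms 46 and 50. On chromosomes I, IV and V the left arms held 41, 33 and 22 and the right arms 39, 33 and 26. Peaks up to 5 kb leaned the same way on these chromosomes, with 179 on the left arm and 256 on the right arm of II, and 197 and 265 on those of III. Over the 5 autosomes they stood at 42.3 per Mb on left arms and 40.5 per Mb on right arms.

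Chromosome I had 11.1 domains per Mb (9.47 to 12.9). Chromosome III had 10.9 per Mb (9.21 to 12.8), and chromosome II had 9.05 (7.599 to 10.7). The density was 7.84 on chromosome IV (6.58 to 9.27) and 4.65 on chromosome V (3.77 to 5.67). Neighbours in this order had overlapping intervals, except IV and V. Chromosome I had a median domain width of 7218 bp and 69 of 167 domains over 8 kb (41.3%, 34.1 to 48.9%). The shares over 8 kb on II (35.5%, 28.01 to 43.8%) and III (35.3%, 28.1 to 43.3%) overlapped it. On chromosome IV the median was 6053 bp and 26 of 137 domains exceeded 8 kb (18.98%, 13.3 to 26.4%). On chromosome V, 49 domains lay in the centre and 48 on the arms, which together are longer. The plot of domains per Mb by zone shows the centre as the highest bar on every autosome. For peaks up to 5 kb the centre was also the highest on II, III, IV and V, but not on I.

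**Figure D1:**
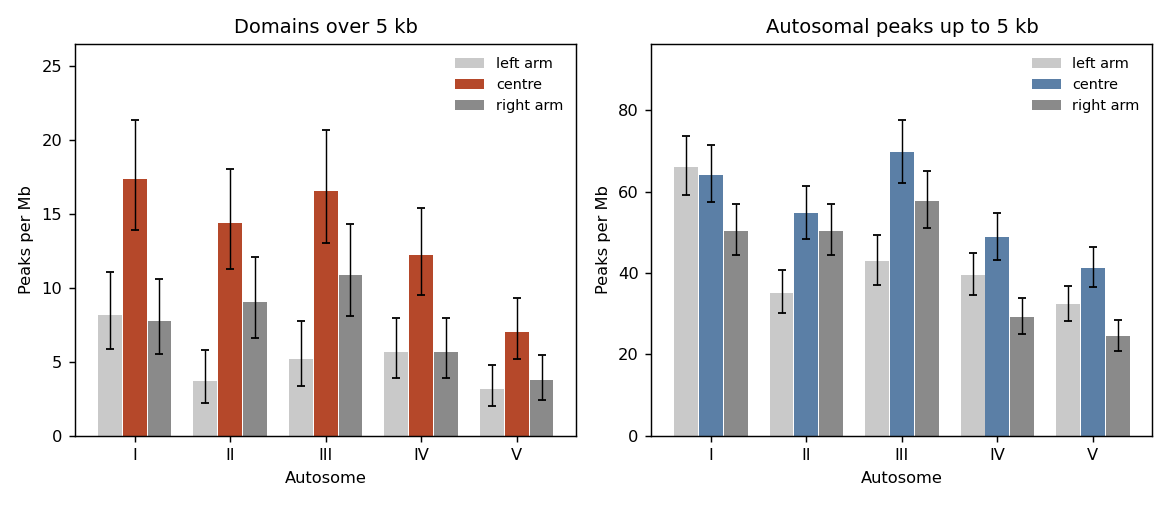
Peaks per Mb in the left arm, centre and right arm of each autosome (x axis), for domains over 5 kb on the left and autosomal peaks up to 5 kb on the right; bars are counts per Mb and error bars exact Poisson 95% intervals. For domains the centre is the highest bar on all 5 autosomes, from 7.05 per Mb on V to 17.3 on I. For peaks up to 5 kb it is the highest on II to V. On I their left arm, at 66.1 per Mb, is about as high as the centre, at 64.2.

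At a finer scale the domains were uneven. In 80 full windows of 1 Mb the median was 7 domains. The windows with the most were I 6 to 7 Mb, with 22, II 8 to 9 Mb, with 21, and III 8 to 9 Mb, with 20. No domain had its midpoint in II 2 to 3 Mb, V 18 to 19 Mb or V 19 to 20 Mb. These 3 windows still held 34, 29 and 19 peaks up to 5 kb. The longest stretch between consecutive domains, 2.54 Mb on V from 17658623 to 20196421, held 59 narrower peaks. The next longest were on the left arm of II, 1.87 Mb from 1931032 to 3804424 and 1.51 Mb from 411954 to 1926001. Of 24 stretches over 500 kb without a domain, 12 were on V. Across the windows, counts of domains and of peaks up to 5 kb had a Spearman rho of 0.65, a description over 80 windows that share 1 list.

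Domains had closer neighbours than narrower peaks did. The gap, counted from edge to edge, to the nearest other larger-list peak had a median of 1150 bp for domains (quartiles 264 and 4169 bp), against 1767 bp for peaks up to 5 kb (449 and 5888 bp). A neighbour lay within 1 kb of 329 domains (47.8%, Wilson interval 44.04 to 51.5%) and of 1450 peaks up to 5 kb (38.5%, 36.9 to 40.0%), against 39.9% of all autosomal peaks. Within 500 bp the shares were 36.6% of domains and 26.9% of peaks up to 5 kb. The share with a neighbour within 1 kb rose with width among the narrower peaks. It was 32.9% of the 837 up to 1500 bp wide and 44.8% of the 353 over 4000 bp (39.7 to 49.98%). Domains of 5 to 6 kb, at 45.5%, stood close to the latter, so close neighbours were not particular to domains. These gaps come from the list that defined the domains. Close neighbours were mostly on a single side, since 47 domains (6.82%, 5.17 to 8.95%) and 192 peaks up to 5 kb (5.10%, 4.44 to 5.84%) had peaks within 1 kb on both. The gaps on the left and right of a domain were almost unrelated in rank (Spearman's rho 0.02 over 687 domains with both gaps).

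The flanking peaks themselves were mostly narrow. Peaks next to a domain had a median width of 2503.5 bp (quartiles 1741 and 4182 bp) and a median score of 601.9, against 2317 bp and 553.5 for peaks next to a peak up to 5 kb. The nearest neighbour was itself over 5 kb wide for 133 domains (19.3%, 16.5 to 22.4%) and for 582 peaks up to 5 kb (15.4%, 14.3 to 16.6%), against 16% of all autosomal peaks. Other larger-list peaks covered 28.7% of the 5 kb on each side of domains and 24.7% of the 5 kb on each side of peaks up to 5 kb. Around the 353 peaks over 4000 and up to 5000 bp wide they covered 28.6%, about as much as around domains. The larger list covered 17.3% of the autosomes as a whole, so the surroundings of both kinds of peak were denser than the average.

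Most domains stood apart from other domains. Of 684 gaps between consecutive domains, 84 were under 5 kb (12.3%) and 37 under 1 kb, and the median was 50.8 kb (quartiles 16.9 and 128.7 kb). Linking domains less than 5 kb apart gave 69 runs that held 153 domains, and 536 domains stood alone. There were 58 runs of 2 domains, 8 of 3, 2 of 4 and 1 of 5. The run of 5 lay at the far right of chromosome I, from 15004913 to 15056710, and its last domain ended at the last peak end of either list there. That end of chromosome I is known to carry the ribosomal RNA gene array, and gene positions were not used here. Domains filled 77.7% of this run of 51.8 kb, with no narrower peak between them. The second longest run, III 5158650 to 5211578, held 4 domains of 9002 to 13975 bp in 52.9 kb, of which 84.4% was domain.

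The smaller list either took a domain almost whole or left it out. It met 417 of the 689 domains by at least 1 bp (60.5%, Wilson interval 56.8 to 64.1%) and 2892 of the peaks up to 5 kb (76.8%, 75.4 to 78.1%), against 74.2% of all autosomal peaks. The difference was -16.2 percentage points (Newcombe interval -20.2 to -12.4). The share met rose with width in peaks up to 5 kb. It was 68.0% of the 837 up to 1500 bp wide and 86.4% of the 353 over 4000 bp. In domains the share met was level from 5 to 7 kb and lower above 7 kb. Among domains of 5 to 6 and 6 to 7 kb, 83.3% of 233 (77.9 to 87.5%) and 83.8% of 148 (77.0 to 88.9%) were met. Of 87 domains of 7 to 8 kb, 58 were met (66.7%, 56.2 to 75.7%). Of the 221 domains over 8 kb, 41 were met (18.6%, 13.98 to 24.2%), and 376 of the 468 domains of 5 to 8 kb as a whole were met (80.3%, 76.5 to 83.7%). Of the met domains, 383 were covered over at least 90% of their bases (91.8% of the met, and 55.6% of all domains, against 70.9% of all autosomal peaks). Only 34 domains (4.93%, 3.55 to 6.82%) were covered in part, with more than 0 and less than 90% of their bases, and 5 of these under 50%. For peaks up to 5 kb the partly covered share was 3.05% (2.55 to 3.65%). Summed over bases, the smaller list covered 47.9% of domain territory, 2.57 of 5.36 Mb, and 78.1% of the territory of peaks up to 5 kb. The scatter of coverage against width shows the points gathered at the top and at the bottom.

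**Figure D2:**
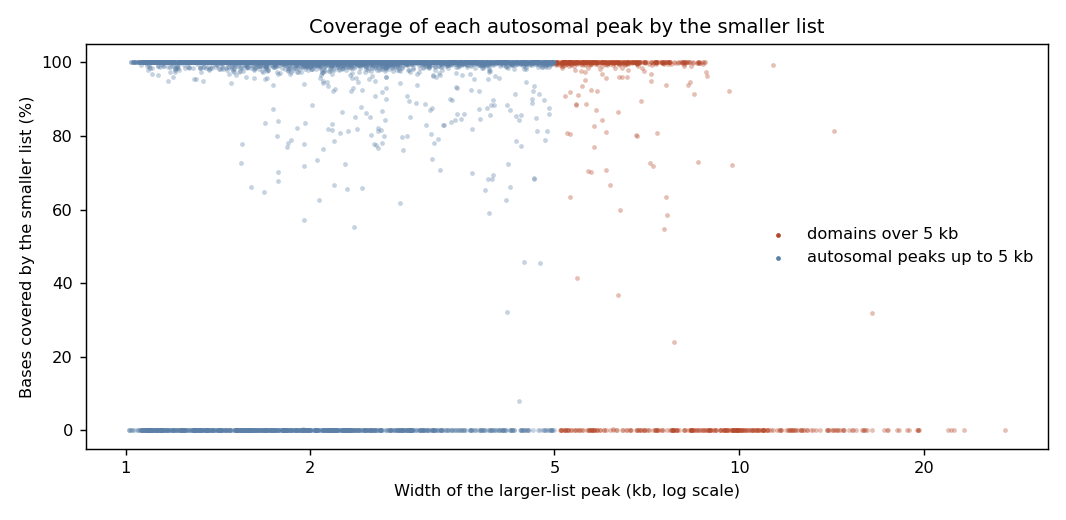
Each point is 1 autosomal peak of the larger list, with its width (x axis, kb, log scale) and the percentage of its bases covered by the smaller list (y axis); domains over 5 kb are red and peaks up to 5 kb blue. Points lie near 100% or at 0%, with 34 domains and 115 peaks up to 5 kb in between, and beyond 9 kb nearly all domains lie at 0%.

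Breaking up of domains was rare. Of the 417 met domains, 413 met a single smaller-list peak and 4 met 2 (0.959%, 0.374 to 2.44%), none more. Among the 2892 met peaks up to 5 kb, 3 met 2 (0.104%, 0.0353 to 0.305%), and the share over all met autosomal peaks was 0.212%. A wider peak has more room for 2 peaks by its width alone. All 4 broken domains are named here, 2 of them by the rule for named regions and the others after their values were seen. Domain II 4790512 to 4798238 (7.73 kb, score 637.8) was covered over 99.6% by peaks of 2052 and 6962 bp that lay 18 bp apart. Domain III 5905050 to 5916392 (11.3 kb, score 82.19) was covered over 99.3% by peaks of 6136 and 5163 bp that lay 77 bp apart. In these the break was narrow against the domain. Domain I 13833664 to 13847957 (14.3 kb, score 3100) was covered over 81.5% and had a break of 2650 bp between peaks of 8261 and 3446 bp. Domain IV 7922635 to 7927873 (5.24 kb, score 3011.9) was covered over 80.8% and had a break of 420 bp.

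Where a domain and a smaller-list peak met each other alone, their edges nearly coincided. In these 400 pairs the smaller-list peak began a median of 8 bp before the domain (quartiles of the start offset -31.25 and 5.25 bp) and ended 9.5 bp after it (0 and 33 bp). Its width was a median of 100.4% of the domain's (99.9 to 101.0%, quartiles). Both edges lay within 200 bp of the domain's in 316 pairs (79.0%, 74.7 to 82.7%), against 2334 of 2739 such pairs of peaks up to 5 kb (85.2%, 83.8 to 86.5%). The smaller-list peak was itself over 5 kb wide in 381 of the 400. Another 13 domains met a smaller-list peak that reached a further larger-list peak as well.

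Width and the distance to a neighbour both went with whether the smaller list held a domain. Among domains more than 3 kb from any other larger-list peak, 118 of 123 of 5 to 7 kb were met (95.9%, 90.8 to 98.3%). Of those of 7 to 9 kb, 38 of 52 were met (73.1%, 59.7 to 83.2%), and of those over 9 kb, 0 of 45 (Wilson interval 0 to 7.87%). The widest isolated domain that was met measured 8855 bp. The limit of 9 kb was set after seeing the data, so the count of 0 depends on that choice and its interval does not cover it. Over all isolated autosomal peaks 93.4% were met, and over isolated peaks up to 5 kb 96.8% (95.7 to 97.6%). The smaller list held 1 autosomal peak over 9 kb, of 9531 bp, against 153 in the larger list. With a neighbour within 1 kb, 170 of 329 domains were met (51.7%, 46.3 to 57.0%) and 848 of 1450 peaks up to 5 kb (58.5%, 55.9 to 61.0%).

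Set side by side at equal gaps, domains of 5 to 8 kb were met at shares that lay above those of peaks up to 5 kb or overlapped them within their intervals. With a neighbour within 250 bp, 62.1% of 116 such domains (53.0 to 70.4%) and 57.1% of 608 peaks up to 5 kb (53.1 to 61.0%) were met. With the nearest peak 1 to 2 kb away, 89.3% of 56 such domains (78.5 to 94.996%) and 70.04% of 554 peaks up to 5 kb (66.1 to 73.7%) were met, and these intervals did not overlap. With none within 5 kb the shares were 96.1% of 103 (90.4 to 98.5%) and 97.6% of 1056 (96.5 to 98.4%). Domains over 8 kb were low at both ends of this range, with 17.3% of 52 met (9.38 to 29.7%) at the short end and 9 of 50 (9.77 to 30.8%) at the long end. Scores in the larger list were limited by the tie at 3100, which was the median of unmet and of met domains, and the lower quartile was 1570.5 in unmet and 2100.2 in met domains. Unmet peaks up to 5 kb had a median score of 158.2 and met ones of 543.0. In the 400 pairs, wider domains ranked lower by score in the smaller list (Spearman's rho -0.38) and higher by score in the larger list (0.24), both as descriptions over pairs from the same lists.

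**Figure D3:**
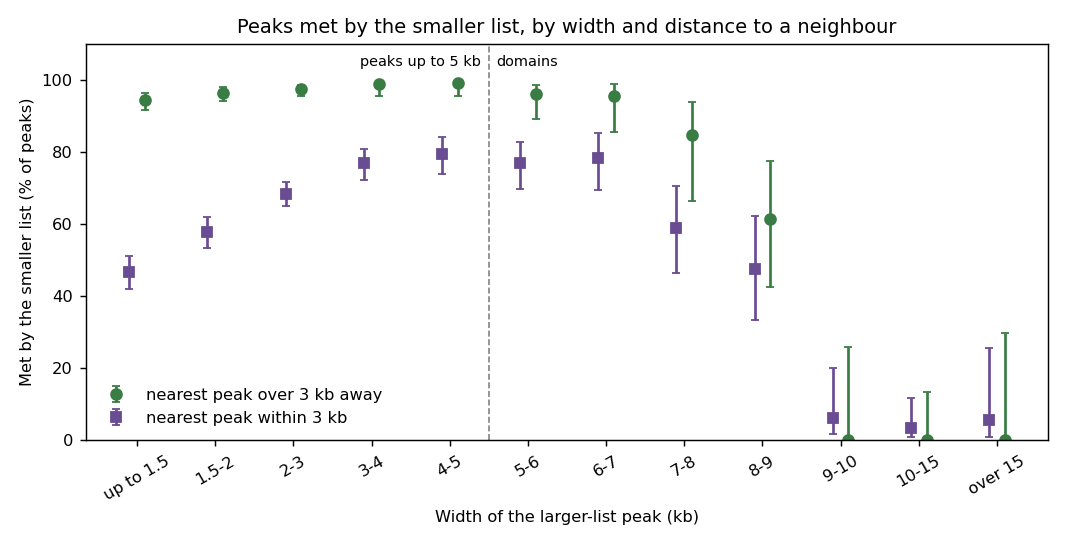
Percentage of autosomal larger-list peaks met by the smaller list (y axis) by width class (x axis, kb), with the nearest other larger-list peak over 3 kb away (green circles) or within 3 kb (purple squares); error bars are Wilson 95% intervals and the dashed line marks 5 kb. Isolated peaks stay above 94% up to 7 kb and reach 0 from 9 kb on, and peaks with a neighbour lie lower in every class up to 9 kb.

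Of close neighbours, the smaller list often held a single one. Of 302 adjacent pairs of a domain and a peak up to 5 kb less than 1 kb apart, both were met in 55 (18.2%, 14.3 to 23.0%), the domain alone in 103, the narrower peak alone in 38 and neither in 106. Of 670 pairs of peaks up to 5 kb at that distance, both were met in 245 (36.6%, 33.0 to 40.3%) and neither in 86. A single peak was met in 46.7% of the pairs with a domain and in 50.6% of the pairs of peaks up to 5 kb. Between 1 and 3 kb apart these shares were 49.5% and 50.4%, so a single met peak was not particular to close pairs. More than 3 kb apart, both were met in 363 of 640 pairs with a domain (56.7%, 52.9 to 60.5%), against 1543 of 1964 pairs of peaks up to 5 kb (78.6%, 76.7 to 80.3%). Where a pair with a domain had a single met peak at this distance, the unmet one was more often the domain, with the narrower peak alone met in 183 pairs and the domain alone in 57. Among the 37 pairs of domains less than 1 kb apart, both were met in 6, 1 of them in 15 and neither in 16. Of the 153 domains in runs, 70 were met (45.8%), and of the 536 that stood alone, 347 (64.7%).

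Unmet domains had a smaller-list peak close by less often than unmet narrower peaks did. A smaller-list peak lay within 1 kb of 52 of the 272 unmet domains (19.1%, 14.9 to 24.2%). The same held for 419 of the 876 unmet peaks up to 5 kb (47.8%, 44.5 to 51.1%). The nearest smaller-list peak lay a median of 4812 bp from an unmet domain (quartiles 1946.5 and 11505.5 bp), against 1090 bp from an unmet peak up to 5 kb (374 and 3008 bp). No smaller-list peak lay within 5 kb of 131 of the 272 unmet domains (48.2%, 42.3 to 54.1%) and of 147 of the 876 unmet peaks up to 5 kb (16.8%, 14.5 to 19.4%). In the 5 kb on each side of unmet domains, the larger list covered 35.05% and the smaller list 14.7% of bases. Around met domains the values were 24.5% and 14.2%. The median cover by the smaller list over single domains was 1.88% around unmet and 8.11% around met ones. In the first 250 bp from the edge it covered 1.71% and 14.4% of bases. Around met domains this cover includes the overhang of the very peak that met the domain. The contrasts of met and unmet domains are therefore partly fixed by that split and do not measure separate flanking peaks. Other larger-list peaks covered 4.97% of the first 250 bp from met domains. In the 5 kb on each side of unmet peaks up to 5 kb, the larger list covered 46.0% and the smaller list 31.2% of bases. Over the autosomes as a whole the 2 lists covered 17.3% and 13.2%. The profile outward from the edges shows this as a function of distance.

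**Figure D4:**
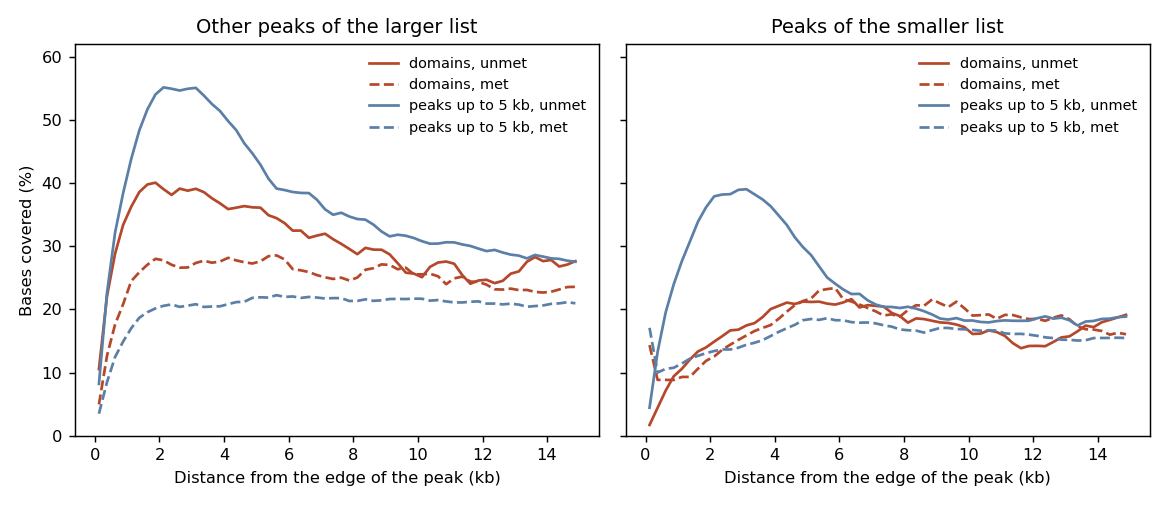
Percentage of bases covered (y axis) by other larger-list peaks (left) and by smaller-list peaks (right) at each distance outward from the edges of a peak (x axis, kb, steps of 250 bp, both sides together), for domains (red) and peaks up to 5 kb (blue) that were unmet (solid) or met (dashed). In the step 1.75 to 2 kb from unmet domains the larger list covers 40.1% and the smaller list 14.0%, and around unmet peaks up to 5 kb they cover 54.0% and 36.2%. The dashed smaller-list curves include overhangs of the peaks that met the domain or narrower peak.

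The 2 widest domains of each autosome were all unmet. On chromosome I these were 5157079 to 5184154 (27.1 kb, score 3100), whose nearest smaller-list peak was 2797 bp away, and 7923739 to 7943383 (19.6 kb, score 1571.02), at 5234 bp. On II they were 11100437 to 11122357 (21.9 kb, score 66.52), at 3360 bp, and 14348517 to 14367296 (18.8 kb, score 1048.8), at 1665 bp. The scores of these domains spread over nearly the whole range of the list. On III, 3718751 to 3740845 (22.1 kb, score 1259.6) and 887491 to 903409 (15.9 kb, score 1724.01) lay 12166 and 6554 bp from the smaller list. On IV, 360608 to 383851 (23.2 kb, score 297.02) lay 107 bp from it, and 4748952 to 4768471 (19.5 kb, score 3100) lay 3780 bp from it. On V, 11895955 to 11918324 (22.4 kb, score 81.72) and 10800210 to 10819092 (18.9 kb, score 353.5) lay 13770 and 14754 bp from it. Of the 10, the 4 on I and V lay in centres and the 6 on II, III and IV on arms.

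The domain on IV shows a whole domain missing beside peaks that both lists share. Its neighbour in the larger list began 107 bp to its right, and a smaller-list peak began at the same base. The domain on V had its nearest neighbour 581 bp to the right, and that neighbour was missing from the smaller list as well. The map of 5 domains shows both cases next to the domains on II and III that the smaller list broke in 2.

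**Figure D5:**
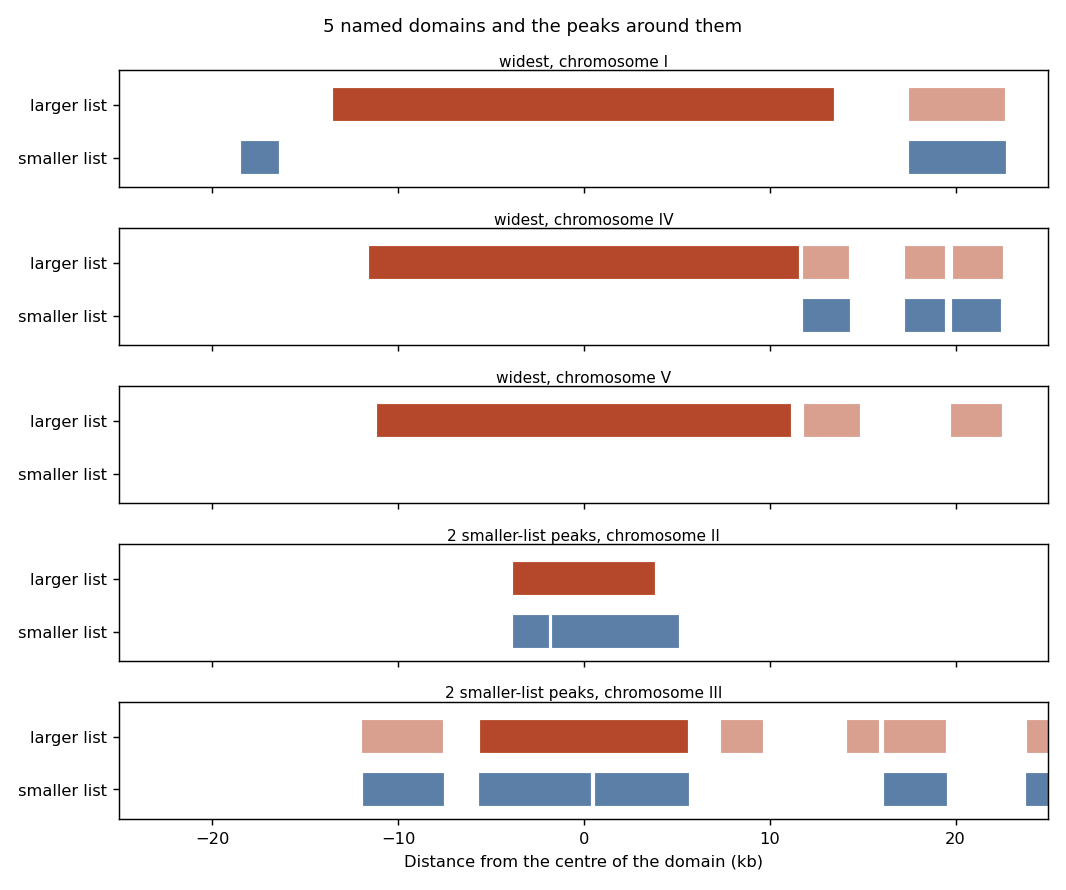
Peaks of the larger list (upper row of each panel, the domain in dark red and other peaks in light red) and of the smaller list (lower row, blue) within 25 kb of the centre of 5 domains (x axis, distance in kb). The widest domains of I, IV and V have no smaller-list peak under them, and the domains on II and III have 2 each, with breaks of 18 and 77 bp.

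Among domains over 10 kb, 3 were met. Besides the broken ones on I and III these included I 8037848 to 8054322 (16.5 kb, score 842.1), of which a peak of 5253 bp covered the right-hand 31.9%, ending at the same base. Within the run of 5 domains at the right of chromosome I, the smaller list held the 2 narrowest, of 5247 and 5849 bp, over 99.6% and 99.8% of their bases. It held none of the other 3, of 10016, 9997 and 9139 bp. None of the 4 domains of the run III 5158650 to 5211578 was met, and the smaller list covered 0% of its 52.9 kb. By contrast, all 4 domains of the run IV 8723932 to 8755187, picked after its values were seen, were met. These were 5584 to 6482 bp wide, and the smaller list covered 72.9% of that run.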

How the data were processed

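HTZ-1 ChIP-seq peaks of whole L3 worms were analysed. Per the labels' protocols, frozen ground worms were fixed in 1% formaldehyde and sonicated. The submitters' processing notes name BWA. The authors deposited 2 GFF3 peak lists on WormBase WS220, per the file headers. Each gives start, end and a score per peak. The deposited score has no stated scale and was used only within a list. Comment lines, per the file headers, record a coordinate liftover that changed 12 domains and 25 autosomal peaks up to 5 kb. Peak names begin with MACS but the source field reads MA2C, per the files, so the caller is uncertain and may differ between the lists. Its settings, any use of input and any pooling are not given in the sources used here, so their part in differences between the lists was not tested. In the smaller list 5 peaks without a start were given position 1, and the mitochondrial peak was left out.

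Intervals were computed with SciPy 1.17.1 and tables with pandas 2.3.3 and NumPy 2.4.6 under Python 3.11.15, and plots were drawn with matplotlib 3.10.9. Overlap needed 1 bp. The length of an autosome was taken as the highest peak end found on it. Shares carry Wilson, differences Newcombe and densities exact Poisson intervals. Overlap and gap functions were tested on simulated data. No test over libraries was possible, and library depth, the limit on precision, is unknown. The members were chosen with earlier results of these data known. Named regions were the 2 widest domains per autosome, the 2 with most smaller-list peaks, the 2 longest runs and those nearest to 5000 bp. The limits of 3 kb for isolated peaks, 8 and 9 kb for width, 90% for coverage and 200 bp for edges were set after seeing the data. Genes and sequence of WS220 were not used here. No per-library columns exist in these lists.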

Additional observations from a re-analysis of the deposited data

How the results depend on the processing

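Differences are domains minus autosomal peaks up to 5 kb, in percentage points. Of 47 values under alternatives, 46 kept the direction. The exception, chosen after seeing the data, was the share met by the smaller list with domains limited to 5 to 8 kb, at 3.59 (interval -0.472 to 7.21) in place of -16.2. That share was -6.46 and -45.2 with width limits of 4 and 7 kb, -27.6 among larger-list peaks at or above the median score, -4.65 with smaller-list peaks at or above theirs, -9.66 with larger-list peaks merged within 1 kb and -25.9 among isolated peaks, the last also chosen after seeing the data. The difference in bases covered was -30.2, and under the first 5 of these -20.5, -54.7, -37.6, -19.9 and -37.2. The difference in broken domains was 0.855, 2.91 with a limit of 7 kb, 0.240 (0.00192 to 1.35) with smaller-list peaks merged within 500 bp, and 0.605 among peaks at or above the median score, where the interval reached just below 0. The difference in neighbours within 1 kb was 9.27, and 4.31 among peaks at or above the median score. The cause was not tested. No paired analysis was possible because the lists hold no values per library. The excess of domains in centres stayed between 10.99 and 15.6 over its alternatives. Differences in flank cover were small, 3.99 for the larger list and -3.62 for the smaller, whose cover includes overhangs of peaks that met the domain or narrower peak. For flanks of 10 kb they were 3.53 and -0.839. Among peaks at or above the median score they were 2.72 and -1.997, and with a width limit of 7 kb 3.497 and -5.37. Flank cover is pooled over bases and not counted over peaks, so no interval is given and the difference from 0 was not tested. With read depth unknown, an unmet domain is only one that was not detected in the smaller list.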

Other observations

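The smaller list had broad autosomal peaks of its own. It held 483 over 5 kb, of which 398 (82.4%) lay on a domain of the larger list, 69 (14.3%) on narrower larger-list peaks alone and 16 on no larger-list peak. Of the 69, 35 joined at least 2 larger-list peaks into 1.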
